A study of Mus musculus with 9 samples.

Results

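Kinesins were followed in arrays of 6 tumours, labelled mouse alveolar rhabdomyosarcoma, and of 3 wild-type skeletal muscles. The rule that picked them reads names alone and takes every probe set whose single gene symbol starts with Kif and a digit, Kifc or Kifap. This gave 66 of 22626 probe sets that are not array controls, for 29 of 12393 genes. By textbook role 9 of the 29 act in mitosis (18 probe sets), 17 carry cargo (41 probe sets, counting Kifap3, the adaptor of a transport motor) and 3 were put in neither class (7 probe sets). Of the other names on the class lists, the mitotic Kif2b, Kif14, Kif15, Kif18b and Kif20b were not analysed here, and neither was the transport motor Kif13b. A gene with several probe sets is represented by the one with the highest mean log2 value over the 9 arrays. As 6 of the 9 arrays are tumours, this choice leans toward probe sets that are bright in tumours.

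Alveolar rhabdomyosarcoma is a malignant tumour with features of the muscle lineage, and healthy muscle served as its control. Total RNA of each sample was read on 1 Affymetrix array, which measures a gene by sets of short probes. The labels call the muscles wild-type but give no genotype for the tumours. Strain, age, the muscle taken, any treatment and whether samples came from separate animals are not given in the labels. The p-values therefore measure only the spread between these samples, which may be technical. Values are MAS5 signals, a brightness in arbitrary units, and differences are given on the scale of log2(signal + 16), where the offset makes folds of dim genes smaller.

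Kinesins are motor proteins that use ATP to move along microtubules or to take their ends apart. Mitotic kinesins are made mainly by dividing cells, where they build the spindle, move and attach chromosomes and organise cytokinesis. Transport kinesins haul vesicles, endosomes, mitochondria and ciliary components in cells that do not divide as well. In skeletal muscle the conventional kinesin Kif5b is known for positioning nuclei and organelles along the fibre.

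Muscle 1 and muscle 3 had been deposited on a lower scale than the other 7 arrays and were multiplied by 1.70 and 3.55. Without this step the median difference of all genes is 0.79 instead of 0.10 on the log2 scale. Of all genes, 8.66% passed as higher in tumours and 9.09% as lower, the rule being a Benjamini-Hochberg adjusted p from limma below 0.05. In 10.7% every tumour lay above every muscle, in 11.0% below, and in 21.6% either way. All 5 adult muscle markers were lower in tumours (Acta1, Ckm, Myh4, Tnnt3 and Pvalb), and tumour 1 had the highest tumour signal of each. Ckm read 10856 on tumour 1 and 196 to 478 on the other tumours. Whether tumour 1 held normal muscle was not tested. Myod1 and Myog, which mark the myogenic lineage, were not called, at 636 and 711 in tumours and 477 and 508 in muscles on average. Of the other 2 myogenic markers, Ncam1 was called higher at 4.39 ± 0.39, with no overlap, and Des lower at -2.85 ± 0.85, with overlap through tumour 1 (limma adjusted p = 1.3e-05 and 0.032). Of 5 measured macrophage markers 4 were called higher, with a summed signal of 6786 to 29820 in tumours and 2339 to 3737 in muscles. Both measured adipocyte markers were lower (145 to 1213 against 7612 to 9761), 1 of 4 endothelial and 1 of 2 Schwann cell markers were lower, and none of 4 T cell, 2 B cell, 5 fibroblast or 2 erythroid markers was called. The part of these other cells in the kinesin values was not tested. The 3' to 5' signal ratio of Gapdh, a sign of RNA quality, was 1.68, 57.17 and 33 on muscles 1, 2 and 3 and 1.93 to 9.39 on the tumours. Tumours 1 and 4 had brighter cre spike-in controls (48905 and 34590, against 8049 to 16932 on the others), and results were also computed without both.

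Most mitotic kinesins were higher in the tumours. Of 9 measured, 6 were called higher and none lower, against 8.66% of all genes called higher, and the median difference was 1.53 (log2), against 0.10 over all genes. The other 3 were not called, and at an unadjusted limma p under 0.05 the counts were the same, 6 and 0. With each gene taken as the mean of its probe sets, the median was 1.07 against 0.1 over all genes, and 5 were called higher. Over the 18 mitotic probe sets taken singly the median was 0.9, against 0.11 over all probe sets. In 4 of the 9 (Kif2c, Kif22, Kif11 and Kif20a) every tumour lay above every muscle, as in 10.7% of all genes. In bulk RNA, more cells of a dividing type and more RNA in each cell cannot be told apart.

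Kif2c, the depolymerase that corrects faulty chromosome attachments at centromeres, had the largest difference when each gene was read on 1 probe set. Its signal was 730.1, 364, 1673, 930.4, 1654 and 1139 in tumours 1 to 6 and 34.8, 58.6 and 14.9 in muscles 1 to 3. All tumours lay far above all muscles, and tumour 2 was the lowest tumour. The means were 1082 ± 518 (SD, n = 6) for tumour and 36.1 ± 21.9 (SD, n = 3) for muscle, a difference of 4.32 ± 0.50 (log2 ± SE, 20-fold, limma adjusted p = 7.2e-05). These values rest on a probe set of the _x_at type, whose probes can match other transcripts, and the other 3 probe sets of Kif2c differed from it. One was called higher at 1.72 ± 0.55 (adjusted p = 0.049 over all probe sets), while 2 differed by -0.12 ± 0.46 and -0.21 ± 0.53 and were not called. As the mean of its 4 probe sets Kif2c was called higher at 1.43 (limma adjusted p = 0.022). In that setting Kif4 was at 1.91, Kif22 at 1.89 and Kif20a at 1.58. The size and rank of the Kif2c difference are therefore uncertain.

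Kif22, a chromokinesin that pushes chromosome arms toward the spindle equator, read 1862, 1446, 1810.0, 3564, 3588 and 2298 in tumours 1 to 6 and 544, 325 and 186 in muscles 1 to 3. The groups did not overlap, and tumours 4 and 5 were the highest. Its means of 2428 ± 929 (SD, n = 6) for tumour and 352 ± 180.2 (SD, n = 3) for muscle gave a difference of 2.77 ± 0.40 (6.81-fold, limma adjusted p = 0.00038). The probe set is again of the _x_at type, but a second one, of the _s_at type, was called as well at 2.10 ± 0.48 (adjusted p = 0.0083 over all probe sets). The third was dim, at 7.7 to 79.4 on all arrays, and was not called.

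Kif11, the motor that slides spindle poles apart and known as Eg5, had a signal of 329 on tumour 5 to 770.5 on tumour 3, with a median of 373, against 153, 94.1 and 162 in muscles 1 to 3. All tumours were above all muscles, and tumour 3 stood out while the other tumours lay between 329 and 411. It differed by 1.53 ± 0.39 (limma adjusted p = 0.015). Its other 2 probe sets, at 0.96 ± 0.39 and 0.73 ± 0.42, also had every tumour above every muscle but were not called. Kif20a, which brings the chromosomal passenger complex to the midzone of the dividing cell, had a signal of 119 on tumour 5 to 384 on tumour 1, with a median of 192, against 87.7, 27 and 77.2 in the muscles. The groups did not overlap, and the difference was 1.58 ± 0.49 (limma adjusted p = 0.04).

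Kif4, a chromokinesin of the central spindle, had a signal of 113 on tumour 2 to 861 on tumour 1, with a median of 594, against 244, 113 and 45.7 in muscles 1 to 3. Tumour 2 lay at the level of muscle 2 and below muscle 1, so the groups overlapped, and the difference was 1.91 ± 0.60 (limma adjusted p = 0.041). Kif23, the motor subunit of the centralspindlin complex of cytokinesis, had a signal of 382 on tumour 5 to 929 on tumour 4, with a median of 493, against 413, 76 and 180.1 in the muscles. Muscle 1 lay above tumour 5, so the groups overlapped, and the difference was 1.50 ± 0.47 (limma adjusted p = 0.041). Its other 2 probe sets were not called, at 0.73 ± 0.49 and 0.11 ± 0.27. Muscle 1 was the highest muscle for 4 of the 6 called mitotic kinesins (Kif22, Kif20a, Kif4 and Kif23). It is also the muscle with the lowest Gapdh and Actb ratios. The part of RNA quality in these values was not tested.

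The 3 mitotic kinesins that were not called differed by 0.84 ± 0.61 (Kifc5b), 0.62 ± 0.45 (Kifc1) and 0.46 ± 0.46 (Kif18a), and the groups of each overlapped. Kifc1 is a motor that walks toward the minus end and focuses spindle poles, Kifc5b is its close relative, and Kif18a damps chromosome movements at the spindle equator. Kifc1 and Kifc5b share sequence, and the Kifc1 probe set is of the _s_at type, which can read several transcripts, so their signals may not be separate. Kifc5b was dim in both groups, at 80.5 and 30.5 on average, and its tumours spread 16.2-fold, from 11.8 to 192.

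The 6 calls were not equally firm. Kif2c and Kif22 were called under all 19 alternatives, of which only the mean of probe sets reads more than 1 probe set a gene. The count of 6 fell to 2 without muscle 2 and to 3 without tumour 3, tumour 4 or muscle 3. It was also 3 without tumours 1 and 4. Beside a fit with a replicate block, given with the processing, other settings ended calls too. Kif11 was lost without muscle 2 (adjusted p = 0.096 in a range of 0.0032 to 0.096). Kif20a was lost without tumour 3 (0.063), tumour 4 (0.075), muscle 1 (0.063), muscle 2 (0.23), muscle 3 (0.096) or tumours 1 and 4 (0.077), in a range of 0.006 to 0.23. Kif4 was lost without any 1 array other than tumour 2 or muscle 1 (0.054 to 0.24) and without tumours 1 and 4 (0.1), in a range of 0.0032 to 0.24. Kif23 was lost without tumour 3 (0.076), tumour 4 (0.078), tumour 6 (0.053), muscle 2 (0.27), muscle 3 (0.14) or tumours 1 and 4 (0.066), with quantile normalization (0.058), with median centring (0.061) and as the mean of its probe sets (0.21), in a range of 0.0033 to 0.27.

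**Figure D1:**
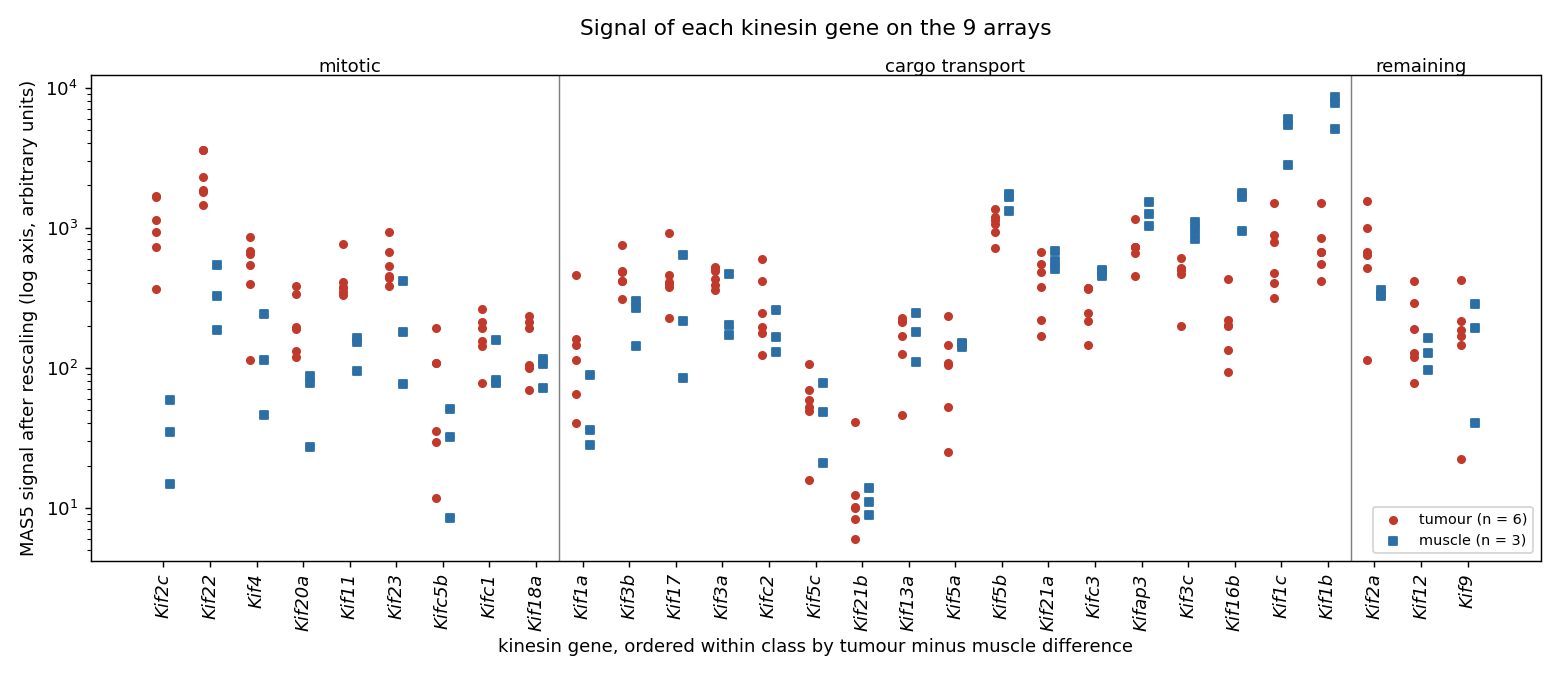
MAS5 signal after rescaling (log axis, arbitrary units) of the probe set that stands for each of the 29 kinesin genes, with 1 red point for each of 6 tumours and 1 blue square for each of 3 muscles. Kif2c and Kif22 stand apart to the upper side in tumours, and Kif1b, Kif1c and Kif16b to the lower side, while most other transport kinesins overlap between the groups.

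Mitotic genes are commonly switched on late in the cell cycle through a short promoter element with the core TTTGAA, the cell cycle homology region, often beside CCAAT boxes, which bind the factor NF-Y. Since 6 mitotic kinesins were higher together, their start regions were searched for these letters on both strands. The windows are those of RefSeq (GRCm38.p6), 300 bases from 250 before to 50 after a transcription start, and 23 of the 29 kinesins had at least 1. TTTGAA occurred in 7 of 8 mitotic kinesins with a window, in 1 of 12 transport kinesins (Kif1a) and in 17.9% of all 32851 windows. CCAAT occurred in 6 of 8, in 4 of 12 and in 37.4%. A loose pattern modelled on the site of MEF2, a factor of muscle genes, was in 0 of 8, 0 of 12 and 3.69%. It allowed any base at its 4 middle positions, so these values are not those of a strict MEF2 consensus. A kinesin was counted if any of its windows held the motif, while the percentages are of single windows, so these shares are not in the same unit. Each motif was counted on its own, and matches of different motifs could share bases. A match only says that these letters are present, and TTTGAA was also found in Kifc1 and Kifc5b, which were not called. Of the mitotic kinesins with a window only Kif18a lacked it. The stretches around TTTGAA in the 5 called mitotic kinesins with a window are shown because all 5 hold it, with TTTGAA (or TTCAAA, its reverse complement) and CCAAT (or ATTGG) in capitals, 5′ to 3′ on the strand of the gene.
Kif2c, chr4:117178858-117178887, minus strand: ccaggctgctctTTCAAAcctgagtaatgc
Kif22, chr7:127042420-127042449, minus strand: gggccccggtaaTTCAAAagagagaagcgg
Kif4, chrX:100626072-100626101, plus strand: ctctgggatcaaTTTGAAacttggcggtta
Kif11, chr19:37376351-37376380, plus strand: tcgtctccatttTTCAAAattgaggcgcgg
Kif23, chr9:61946780-61946809, minus strand: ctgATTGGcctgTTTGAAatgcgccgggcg

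The match began at base -19 before the start in Kif11 and -17 in Kif22, at base 3 of the transcript in Kif23 and at base 20 in Kif4. The starts used for Kif22 and Kif23 lie 47 and 11 bases inside the annotated genes, so the Kif22 match at -17 lies within its gene. Kif22 held another match at -215. In Kif2c the match lay at -103. There the start of the table lies 3852 bases inside the annotated gene, so this window is not its outermost promoter. The longer stretch before the start of Kif11 shows both motifs in 1 promoter, with a CCAAT box on the reverse strand at -45. For contrast, the stretch before Kif1b, the transport kinesin with the lowest tumour values relative to muscle, holds 2 CCAAT boxes and no TTTGAA.
Kif11, chr19:37376252-37376381, plus strand: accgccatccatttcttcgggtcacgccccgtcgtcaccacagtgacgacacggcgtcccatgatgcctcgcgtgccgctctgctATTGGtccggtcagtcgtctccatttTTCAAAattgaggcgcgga
Kif1b, chr4:149307774-149307863, minus strand: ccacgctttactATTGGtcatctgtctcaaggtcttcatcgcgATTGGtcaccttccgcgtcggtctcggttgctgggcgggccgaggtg

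Genes that work with mitotic kinesins were higher too. Of 21 measured partners of the spindle, kinetochore, passenger complex and cytokinesis 17 were called higher and 0 lower, against 8.66% and 9.09% of all genes, with a median difference of 2.42 against 0.10 (18 and 0 at an unadjusted limma p under 0.05). The largest were Incenp at 4.33 ± 0.53 (a scaffold of the passenger complex that Kif20a moves) and Birc5 at 3.85 ± 0.51 (survivin, of the same complex). Next came Bub1 and Nuf2 of the checkpoint and the outer kinetochore at 3.62 ± 0.47 and 3.51 ± 0.44. The Incenp probe set is of the _x_at type, whose probes can match other transcripts. Cenpe, itself a kinesin of the kinetochore that lies outside the naming rule, had a mean signal of 235 in tumours and 52.9 in muscles, a difference of 2.01 ± 0.50 (limma adjusted p = 0.013). Its groups did not overlap. Racgap1, the partner of Kif23 in centralspindlin, was not called at 1.50 ± 0.52 (limma adjusted p = 0.064), nor were Aurka, Ckap5 and Numa1. Prc1, which recruits Kif4 to the central spindle, rose by 3.28 ± 0.53 on a probe set of the _s_at type.

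General markers of dividing cells moved with the mitotic kinesins. Of 10 measured, 9 were called higher, against 8.66% of all genes, led by Top2a, Rrm2, Mki67 and Cdk1 at 3.50 ± 0.41, 3.48 ± 0.41, 3.44 ± 0.57 and 3.43 ± 0.36, and their median difference was 3.19 against 0.10 over all genes. The Rrm2 probe set is of the _x_at type. Tyms was not called, at -0.84 ± 0.43. The part of the share of dividing cells in the kinesin values was not tested.

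Transport kinesins were mostly not called, and those that were fell. Of 17 measured, 3 were called lower (Kif1b, Kif1c and Kif16b), none higher and 14 not called, against 9.09% of all genes called lower, and the median difference was -0.56. In 5 of the 17 every tumour lay below every muscle (also Kif3c and Kifc3), and in 1, Kif3b, above, against 11.0% and 10.7% of all genes. Without rescaling the 2 muscle arrays the same median was 0.28, above 0, with 3 lower and 4 higher. Relative to the median of all genes it lay below in both cases. Without tumour 2, 5 were called lower, with Kif3c and Kifap3 added. At an unadjusted limma p under 0.05, 5 were lower (again with these) and 1, Kif3b, higher.

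Kif1b, a motor of mitochondria and synaptic vesicle precursors, had a signal of 674, 1505, 668, 419, 549.7 and 847 in tumours 1 to 6 and 5099, 8582 and 7816 in muscles 1 to 3. Every tumour was far below every muscle, and tumour 2 was the highest tumour. The means were 777 ± 384 (SD, n = 6) for tumour and 7166 ± 1830.5 (SD, n = 3) for muscle, and the difference was -3.26 ± 0.39 (9.59-fold lower, limma adjusted p = 9.3e-05). Of its 7 probe sets all differed downward and 6 were called, from -4.32 ± 0.39 to -2.36 ± 0.43. The seventh overlapped between groups, at -0.69 ± 0.50. The gene makes several transcripts with different tails, and which of them each probe set reads was not examined.

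Kif1c, a close relative that carries vesicles, read 1497, 796, 473, 880.0, 405 and 316 in tumours 1 to 6 and 2812, 5429.6 and 5948 in muscles 1 to 3. The groups did not overlap, tumour 1 being the highest tumour, and the difference was -2.80 ± 0.46 (6.94-fold lower, limma adjusted p = 0.00097). Its other 2 probe sets were not called, at -0.14 ± 0.48 and -0.41 ± 0.62. As the mean of the 3 the call was lost at -1.12 (adjusted p = 0.086, in a range of 0.00013 to 0.086). Kif16b, a motor of early endosomes, read 93.5, 134, 221, 430.4, 201 and 198 in tumours 1 to 6 and 946, 1768 and 1658 in muscles 1 to 3. Tumours were all lower, with tumour 4 the highest of them, and the difference was -2.77 ± 0.44 (6.84-fold lower, limma adjusted p = 0.00074). Both of its probe sets were called, the second at -2.63 ± 0.50. Kif1b and Kif16b were called under all 19 alternatives.

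**Figure D2:**
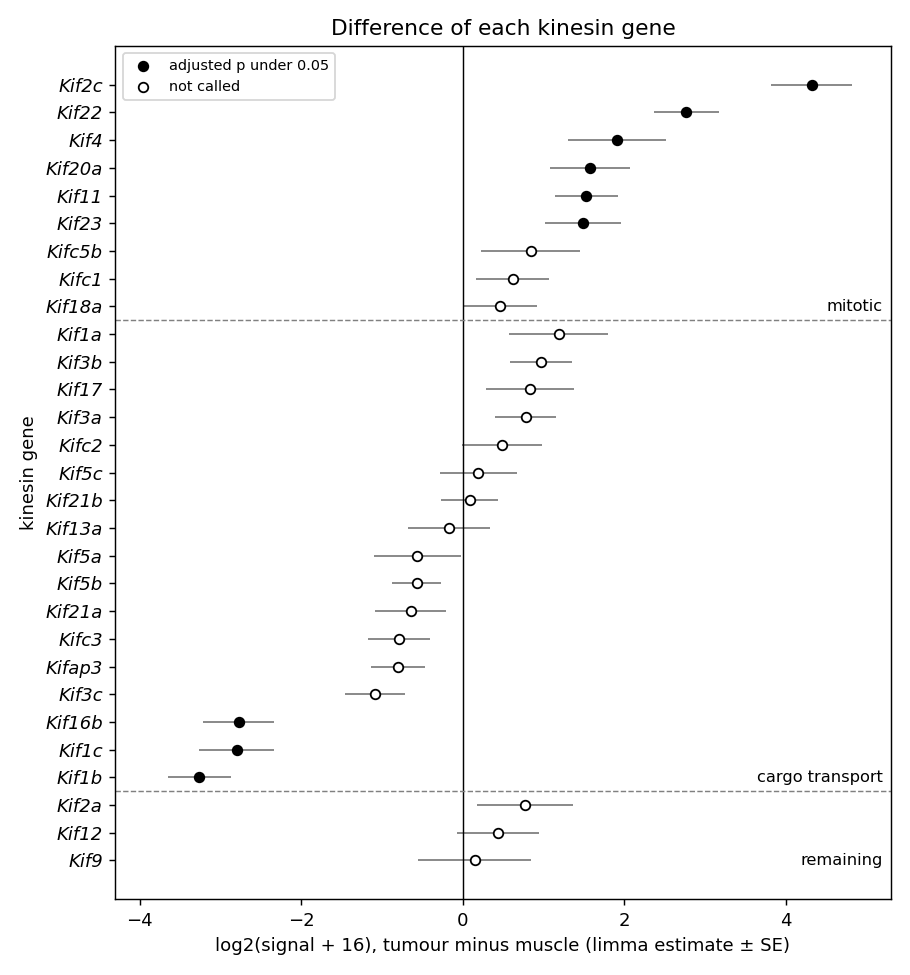
Difference between tumour (n = 6) and muscle (n = 3) of each of the 29 kinesin genes in log2(signal + 16), with its SE as the bar, and filled points where the adjusted p is under 0.05. Mitotic kinesins lie between 0.46 and 4.32, all above 0, and transport kinesins between -3.26 and 1.19.

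The conventional kinesin heavy chains showed how much a gene's value depends on its probe set. Kif5b, the form found in most cells, was not called at -0.57 ± 0.31 on its brightest probe set, with a signal of 719 on tumour 4 to 1356 on tumour 2, with a median of 1099.7, against 1726, 1322 and 1663 in the muscles. All 5 of its probe sets differed downward, and 2 were called over all probe sets, at -2.55 ± 0.60 and -2.63 ± 0.79 (limma adjusted p = 0.0096 and 0.037). As the mean of the 5 it was called lower at -1.64 (adjusted p = 0.01, in a range of 0.01 to 0.7), but without rescaling the brightest probe set differed by 0.28. The forms of neurons, Kif5a and Kif5c, were dim and not called, at -0.56 ± 0.54 and 0.19 ± 0.48. None of 5 neuron markers was called, with summed signals of 325 to 765 in tumours and 411 to 577 in muscles.

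Kinesin-2, the motor that drives transport within cilia, went both ways among its subunits without a call. The motor subunits Kif3a and Kif3b differed by 0.78 ± 0.38 and 0.97 ± 0.38, the adaptor subunit Kifap3 by -0.80 ± 0.33 and the alternative motor subunit Kif3c by -1.09 ± 0.37 (limma adjusted p = 0.19, 0.1, 0.12 and 0.058). Kif3c had a signal of 199.6 on tumour 2 to 611 on tumour 4, with a median of 502, against 1104, 827 and 967 in the muscles, with no overlap. It was called lower without tumour 1 (0.042) or tumour 2 (0.046), without tumours 1 and 4 (0.029), with quantile normalization (0.036), with median centring (0.021), among bright genes (0.036) and with the mean of probe sets (0.044), in a range of 0.021 to 0.75. A second probe set of Kif3a was called higher at 1.37 ± 0.36 (adjusted p = 0.019 over all probe sets), with 646, 309, 478, 618, 472 and 534 in tumours and 244, 152 and 164 in muscles. Every tumour lay above every muscle on it, while the probe set that stands for the gene overlapped. Kif3a was called higher as the mean of its 2 probe sets (0.031) and without rescaling (0.041), in a range of 0.031 to 0.58. Kifap3 was called lower without tumour 2 (0.047, in a range of 0.047 to 0.95).

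Kif1a, a motor of synaptic vesicle precursors best known from neurons, had 2 probe sets that disagreed. The one that stands for the gene differed by 1.19 ± 0.61 and was not called, with 459, 146, 65.1, 161, 114 and 40.5 in tumours and 36.1, 27.9 and 89.1 in muscles. The other was called lower at -1.66 ± 0.50 (adjusted p = 0.038 over all probe sets), with 128, 21.4, 95.3, 64.6, 41.2 and 25.2 in tumours and 213, 199 and 202 in muscles. On the first, tumours 1, 2, 4 and 5 lay above all muscles, and on the second all tumours lay below them, so no direction is given for Kif1a.

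The remaining transport kinesins were not called and overlapped between groups, except Kifc3. Kifc3, a motor linked to cell junctions, had a signal of 145 on tumour 4 to 372 on tumour 2, with a median of 305, all below 452, 489 and 497 in the muscles, but its difference of -0.79 ± 0.39 did not pass (limma adjusted p = 0.2). Kif13a, Kif17, Kif21a and Kifc2, motors of endosomes, dendritic cargo and neuronal processes, differed by -0.17 ± 0.50, 0.83 ± 0.55, -0.64 ± 0.44 and 0.49 ± 0.50. Kif21b was at 6 to 41.1 in tumours and 8.9 to 13.9 in muscles, where signals can be background.

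Of the 3 kinesins in neither class none was called, nor was any at an unadjusted limma p under 0.05. Kif2a, a depolymerase that acts at spindle poles and in neurons, had a 13.7-fold spread among tumours, with 113, 1546, 666, 514, 636 and 986 in tumours 1 to 6 and 324, 333 and 356 in muscles 1 to 3. Every tumour other than tumour 1 lay above the muscles, which lay close together, and tumour 1 lay below them. The difference was 0.77 ± 0.59 (limma adjusted p = 0.45). Without tumour 1 it was 1.21 and called higher (adjusted p = 0.03, in a range of 0.015 to 0.69). Its 5 probe sets did not rank tumour 1 alike: it was the highest tumour on the one at 664 and the lowest on the one at 30.8. Kif9, a kinesin of motile cilia, spread most among tumours of all 29, at 18.9-fold, with 420.0, 22.3, 186, 215, 168 and 144 in tumours 1 to 6 and 285, 191 and 40.3 in muscles 1 to 3. The groups overlapped throughout, and it differed by 0.15 ± 0.70. Kif12 differed by 0.44 ± 0.51.

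Across single probe sets, 9 of 66 were called higher and 12 lower, against 7.87% and 7.52% of all probe sets. The 9 were 8 of the 18 mitotic probe sets and 1 of the 41 transport probe sets, and all 12 lower ones were transport probe sets. Probe sets of 1 gene are not independent, and 6 of the 12 belong to Kif1b. Without rescaling, 15 were called higher and 8 lower. Of 17 kinesins with several probe sets, 6 had them on both sides of 0 (Kif2c, Kif1a, Kif3b, Kif5a, Kif5c and Kif17). Probe sets of Kif3b ranged from -0.47 to 1.30, of Kif17 from -0.41 to 0.83, of Kif5a from -0.56 to 0.35 and of Kif5c from -0.09 to 0.19. No probe set of these genes was called.

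**Figure D3:**
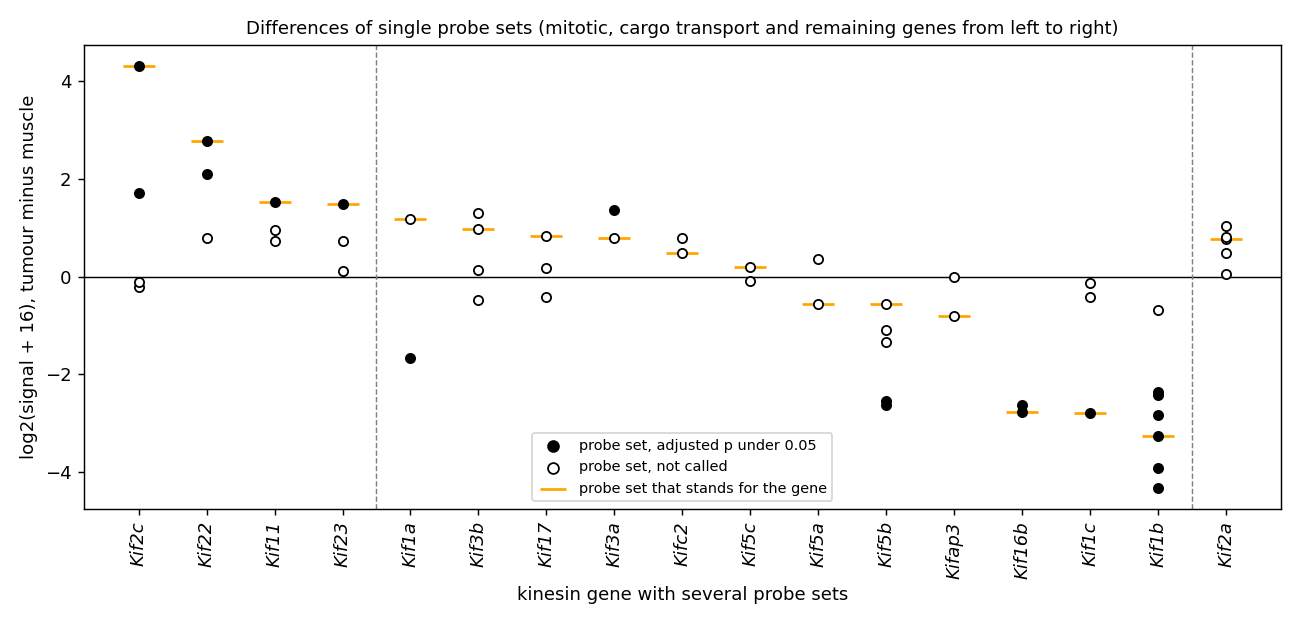
Difference (tumour minus muscle, log2(signal + 16)) of every probe set of the 17 kinesin genes with more than 1, filled where the adjusted p over all probe sets is under 0.05, with an orange bar at the probe set that stands for the gene. Kif1b has 6 called probe sets below 0, and Kif1a has 1 probe set on each side of 0.

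Most partners of transport kinesins were not called. Of 25 measured light chains, adaptors, dynein and dynactin genes 5 were called lower and 1 higher, against 9.09% and 8.66% of all genes, with a median difference of -0.19. The lower ones with no overlap were Trak1 at -2.13 ± 0.30 (the adaptor that links kinesin to mitochondria), Ndel1 at -1.28 ± 0.34 (a dynein regulator), Rhot2 at -1.23 ± 0.40 (Miro2, the mitochondrial anchor of that adaptor) and Dctn6 at -1.15 ± 0.34 (a dynactin subunit). The higher one was the dynein light chain Dynll1 at 1.17 ± 0.34, while Dynll2 was called lower with overlapping groups. No kinesin light chain was called. These counts moved, and without muscle 2 or muscle 3 they were 1 lower and 0 higher, without tumour 3 and without tumour 6 they were 3 lower, without tumour 5 they were 3 lower and 0 higher, without tumour 4 none was higher and without tumour 2 there were 2 higher. Without rescaling, 0 were lower and 2 higher.

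Tubulins form the track of these motors. Of 11 measured 4 were called higher and 2 lower, against 8.66% and 9.09% of all genes. Tubb6, Tubb2b, Tubb5 and Tubb2a rose by 3.71 ± 0.56, 3.48 ± 0.79, 2.41 ± 0.42 and 2.10 ± 0.36, and Tuba8 and Tubb4b differed by -3.74 ± 0.51 and -1.53 ± 0.31. The Tubb2a probe set is of the _s_at type, which can read several transcripts. The other 5 (Tuba4a, Tubb3, Tubg1, Tubb4a and Tuba1a) were not called, at -1.93 to 1.23. Tuba4a read 36107 on tumour 1, 2989 to 5913 on the other tumours and 20694 to 24903 in muscles. Tuba1a read 3086 on tumour 1, 7659 to 12103 on the other tumours and 3006 to 3777 in muscles. Leaving tumour 1 out gave 5 tubulins called higher and 3 lower. Without rescaling 1 was called lower.

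Array by array, the median log2 level of the 9 mitotic kinesins was 7.72 to 9.41 on the tumours and 6.54 to 6.94 on the muscles. That of the 17 transport kinesins was 7.75 to 8.89 on the tumours and 8.09 to 8.92 on the muscles. Levels of different probe sets cannot be compared, but the gap between both medians can be followed from array to array. Mitotic minus transport was -0.25, -0.03, 0.82, 0.11, -0.25 and -0.18 on tumours 1 to 6 and -1.98, -1.37 and -1.55 on muscles 1 to 3. Every tumour lay above every muscle in this gap, with a mean of 0.04 ± 0.41 (SD, n = 6) against -1.63 ± 0.31 (SD, n = 3), and no test was run on it since it is a score over chosen genes. The difference of 1.67 lay between 1.29 and 1.82 under the alternatives, and an array's scale cancels in it apart from the offset.

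Tumours also differed among themselves. Tumour 2 had the lowest signal of the 6 tumours for 4 of 9 mitotic and 8 of 17 transport kinesins. Tumour 5 was also lowest for 4 of 9 mitotic kinesins, and for 0 of 17 transport kinesins. Tumour 1 had the highest for 4 of 9 mitotic and 9 of 17 transport kinesins. Over all genes the median signal was likewise lowest on tumour 2, at 195, and highest on tumour 1, at 343, and the part of the array's overall distribution in these ranks was not tested. The proliferation genes did not follow the same order, with medians of 10.31 on tumour 1 and 10.71 on tumour 2 in a range of 10.31 to 10.99. Mitotic kinesins had the highest median on tumour 3, at 9.41.

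**Figure D4:**
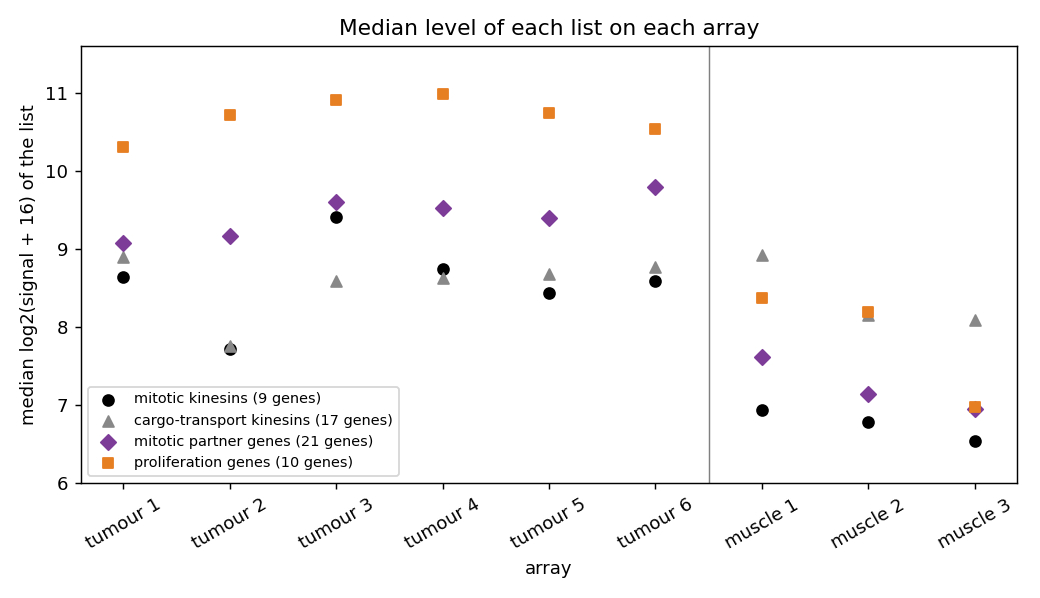
Median log2(signal + 16) of the mitotic kinesins, the transport kinesins, the mitotic partner genes and the proliferation genes on each of the 9 arrays, 1 point for each list and array. Mitotic kinesins, their partners and the proliferation genes are higher on all 6 tumours than on all 3 muscles, while transport kinesins overlap between the groups.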

How the data were processed

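Total RNA of each sample was extracted with Trizol and RNAeasy and hybridised to 1 array, per the protocols in the labels. The authors deposited MAS5 signal intensities on a linear scale, per the submitters' processing notes. The MAS5 version, scaling target and detection calls were not given in the sources used here. MAS5 subtracts background, so dim signals are uncertain.

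Of 22690 probe sets 64 controls were left out, and 20380 had 1 gene symbol in the platform annotation, 691 several and 1555 none. Symbols were used as that annotation gives them. Each array was multiplied to the median of the means trimmed by 2% at each end, which multiplied muscle 1 by 1.6995 and muscle 3 by 3.5493. Tests were run in limma 3.58.1 (R 4.3.3) on log2(signal + 16) values (lmFit, eBayes with trend, no covariates, no filter on dim genes) over all 12393 genes or 22626 probe sets, with Benjamini-Hochberg adjustment and a threshold of 0.05. The fit was tested on simulated data. Summaries used Python 3.11.15, numpy 2.4.6 and pandas 2.3.3.

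The members and lists were chosen with earlier results of these data known. Every kinesin is accounted for. The called ones are described singly, as are some of those whose probe sets disagree or whose tumours spread most, and of each partner list up to 4 called genes in each direction with no overlap. Cenpe, Racgap1, Prc1, Dynll2 and Tyms were named for their roles or exceptions after their values were seen. Sequences come from RefSeq windows of GRCm38.p6, which 23 of 29 kinesins had, and their strand was checked on 1604 overlapping windows of opposite strands, of which 0 disagreed. Alternatives were other scalings (none, quantile, median centring), offsets of 1 and 64, the brighter genes alone, averaged probe sets, no trend, a replicate block, each array left out in turn, and tumours 1 and 4 left out together.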

Additional observations from a re-analysis of the deposited data

Results flagged for a closer look

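Among the 6 tumours, a single array lay far from the rest in 5 of 32 sets of values examined, where chance gives about 5% of sets, and the sets share arrays. Kif11 was highest on tumour 3, at 9.62 on the scale of log2(signal + 16). Kif21b, a dim gene, was highest on tumour 1, at 5.84. Kif3c was lowest on tumour 2, at 7.75. The median of the 17 transport kinesins was lowest on tumour 2, also at 7.75, and the gap between mitotic and transport medians was highest on tumour 3, at 0.82.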

How the results depend on the processing

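Fits of 9 arrays with 3 muscles leave limits that the alternatives show. Of the 9 mitotic kinesins 6 were called higher, and 2 with a replicate block, 3 without tumours 1 and 4 and 2 to 6 when 1 array was left out. Transport kinesins called lower numbered 3, and 3 to 5 when 1 array was left out, with 5 without tumour 2. Those called higher numbered 0, but 4 without rescaling and 1 with the mean of probe sets. Of the remaining kinesins 1 (Kif2a) was called higher without tumours 1 and 4, and 0 to 1 when 1 array was left out. Transport partners called higher numbered 1, but 2 without rescaling, 0 with median centring, 0 with the replicate block, 2 without tumours 1 and 4 and 0 to 2 when 1 array was left out. Those called lower numbered 5, but 0 without rescaling, 3 with the mean of probe sets, 3 without the trend, 1 with the replicate block and 1 to 5 when 1 array was left out. Tubulins called lower numbered 2, and 1 without rescaling, and kinesin probe sets called higher 9, and 15 without rescaling. Without rescaling, the scale of 2 muscle arrays is what changed, and for the others the cause was not tested. Other counts of these lists, such as mitotic partners and proliferation genes called higher, stayed within 1.5 times.

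Over all genes, 1073 were higher and 1127 lower, and 2373 and 369 without rescaling. For kinesins, 6 higher and 3 lower became 10 and 3. Fewer genes were called without muscle 3 (503 higher and 607 lower), without muscle 2 (595 and 672) and with the replicate block (641 and 826).

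Replicate numbers are shared by tumours 1 to 3 and muscles 1 to 3. Deviations of samples with the same number correlated at 0.228, 0.177 and -0.018 across genes, so the numbers were not taken as pairs. With the replicate block, which leaves 6 arrays, Kif11, Kif20a, Kif4 and Kif23 were not called (adjusted p = 0.063, 0.083, 0.13 and 0.12).

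Several kinesins that were not called changed sign under some alternatives. Without rescaling these were Kif13a at 0.56, Kif21a at 0.18, Kif5a at 0.16, Kif5b at 0.28, Kifap3 at 0.05 and Kifc3 at 0.03. With 1 or more arrays left out they were Kif12 at -0.03, Kif21b at -0.15 and Kif9 at -0.31 (all without tumours 1 and 4), Kif13a at 0.11 (without tumour 2) and 0.07 (without muscle 2), Kif21b at -0.11 and Kif9 at -0.13 (without tumour 1), Kif9 at -0.57 (without muscle 3) and Kif5c at -0.17 (without muscle 1). Kif21b was at -0.02 with median centring, Kif1a at -0.24 with the mean of probe sets, and Kif9 and Kifc5b at -0.02 and -0.09 with the replicate block. With 1 array left out at a time, Kif13a ranged from -0.45 to 0.11, Kif21b from -0.11 to 0.17, Kif5c from -0.17 to 0.51 and Kif9 from -0.57 to 0.64.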
